A study of Mus musculus with 4 samples.

Results

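The genes described here encode the glucose carriers and the enzymes of glycolysis, of the pentose phosphate pathway and of glycogen turnover, in cultured helper T (Th) cells of the mouse. They were chosen by symbol as a list of 41 genes, out of 18749 genes that could be named on the array. Of the 41 genes, 40 had at least 1 matched probe and together had 64 probes. Pdk2, which encodes a pyruvate dehydrogenase kinase, had no matched probe and was not analysed here. A signal well above background was found on at least 1 of the 4 arrays for 39 of the genes and on all 4 arrays for 37. Pdk4, another pyruvate dehydrogenase kinase, was well above background on 0 arrays.

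Glycolysis splits glucose into pyruvate, which is either turned into lactate and exported or passed to the mitochondria by pyruvate dehydrogenase. T cells that are activated through their antigen receptor are known to use glucose quickly and to release much of it as lactate. The pentose phosphate pathway branches off early and supplies ribose and reducing power, and glycogen is the branched store of glucose, built by a synthase and a branching enzyme and broken down by phosphorylase. The hypoxia-inducible factor and Myc are known activators of many of these genes.

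Expression was measured on 4 one-colour arrays, 1 array for each condition, so no difference below has a replicate check and no p-value was computed. The cells were naive CD4 T cells from the spleen of C57BL/6J mice, labelled either Bach2 WT or Bach2 KO, where KO stands for Bach2 flox/flox crossed with CD4-Cre TG. The control mice of the study were described as CD4-Cre mice, so that Cre, driven by the Cd4 promoter and active in T cells, would be present in both genotypes. The labels give female mice for all arrays, the methods of the study give 8 to 12 weeks for its mice in general, and whether cells of several animals were pooled is not given in the sources used here. All cells were stimulated for 2 days with plate-bound anti-TCR-β mAb at 3 μg/ml together with anti-CD28 mAb at 1 μg/ml, and then grown for 3 days in IL-2 at 2.5 ng/ml. They were taken at that point, labelled Th (-), or after 4 h on immobilized anti-TCR-β mAb with no IL-2 added, labelled Th (+). Bach2 is a transcriptional repressor, and the study asked how its loss changes the Th2 response of such cells.

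Signals are given below as multiples of the 75th percentile of the same array, which was between 312.6 and 436.2 intensity units. Between 53.6% and 54.0% of the probes of an array were well above background, and no spot was saturated. The error is the one that the scanner software attached to each spot, between 10% and 20.6% of the signal for these genes where they were well above background, which came to about 0.20 on the log2 scale for most differences. It covers the reading of the spot and not the mice, the cultures or the hybridizations. Different probes of one gene gave a median SD of the log2 difference between 0.094 and 0.16, depending on the comparison. In cells measured in bulk, fewer cells of a type and less RNA per cell cannot be told apart.

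The genotype labels had no clear check on these arrays. The Bach2 probe gave 6.72 on the WT Th (-) array and 6.07 on the KO Th (-) array, and 10.6 and 8.73 after re-stimulation. Of 4 Y-linked genes, 3 were well above background on both KO arrays and 0 on both WT arrays, although all mice were labelled female. The methods of the study allow mice of either sex in cell culture experiments, and sex and genotype cannot be told apart on these arrays. Of 9 mast cell and basophil markers, 6 were well above background on each KO array, against 2 and 1 on the WT arrays, with a summed scaled signal of 0.461 and 1.03 on the WT arrays and 2.97 and 4.95 on the KO arrays. Ms4a2, a chain of the IgE receptor, and the mast cell proteases Mcpt4 and Tpsb2 were well above background on 0 arrays. The 9 myeloid markers summed to 0.675 and 0.339 on the WT arrays and to 1.52 and 1.00 on the KO arrays. Hba-a1, an α-globin and the only one of 3 erythroid markers well above background, went the other way, with 19.9 and 14.7 on the WT arrays and 3.47 and 2.86 on the KO arrays. All 9 T cell identity genes, among them Cd3e and Cd4, were well above background on every array and none of them was 2-fold apart between genotypes. What part these other transcripts have in the differences between genotypes was not tested.

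The starts of 6 of the genes with differences described below are shown first. Pygl, Pdk1 and Ldhb were lower on the KO arrays in both states, and Slc16a3 was lower on the KO array after re-stimulation. Hk2 and Pfkfb3 were higher after re-stimulation in both genotypes. Other genes at least 2-fold apart in some comparison, such as Pfkm, Pfkfb4, Pygb and Gbe1, are not shown. Each window runs from 250 bases before to 50 bases after an annotated transcript start, 5′ to 3′ on the strand of the gene, from RefSeq on the GRCm38.p6 assembly. Capitals mark ACGTG or GCGTG, the core of the hypoxia response element, read on either strand (CACGT and CACGC on the strand shown), and ACGTG is also part of the E-box CACGTG that Myc family proteins bind.
Pygl, liver glycogen phosphorylase, chr12:70227634-70227933, minus strand: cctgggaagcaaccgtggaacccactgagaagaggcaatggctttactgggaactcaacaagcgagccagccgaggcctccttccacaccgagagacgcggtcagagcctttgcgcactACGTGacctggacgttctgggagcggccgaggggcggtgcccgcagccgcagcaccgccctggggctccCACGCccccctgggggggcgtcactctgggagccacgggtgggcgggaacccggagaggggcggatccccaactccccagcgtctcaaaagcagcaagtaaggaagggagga
Pdk1, pyruvate dehydrogenase kinase 1, chr2:71872974-71873273, plus strand: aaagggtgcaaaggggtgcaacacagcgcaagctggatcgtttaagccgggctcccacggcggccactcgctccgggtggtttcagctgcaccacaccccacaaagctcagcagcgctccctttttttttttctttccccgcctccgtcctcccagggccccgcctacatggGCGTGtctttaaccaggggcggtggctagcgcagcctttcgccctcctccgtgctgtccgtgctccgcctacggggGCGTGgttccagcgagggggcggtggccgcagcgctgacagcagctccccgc
Ldhb, lactate dehydrogenase B, chr6:142507908-142508207, minus strand: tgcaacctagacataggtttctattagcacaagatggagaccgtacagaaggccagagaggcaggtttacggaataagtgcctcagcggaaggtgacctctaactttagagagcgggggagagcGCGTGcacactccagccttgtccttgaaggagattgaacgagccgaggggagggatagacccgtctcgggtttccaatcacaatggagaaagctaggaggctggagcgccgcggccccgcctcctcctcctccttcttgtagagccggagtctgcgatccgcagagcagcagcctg
Slc16a3, a lactate exporter, chr11:120948817-120949116, plus strand: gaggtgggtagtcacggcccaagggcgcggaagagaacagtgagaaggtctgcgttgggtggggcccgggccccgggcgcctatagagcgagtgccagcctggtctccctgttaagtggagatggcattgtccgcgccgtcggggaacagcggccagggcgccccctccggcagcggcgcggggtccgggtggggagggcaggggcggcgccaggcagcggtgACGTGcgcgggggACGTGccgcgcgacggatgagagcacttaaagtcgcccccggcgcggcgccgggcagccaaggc
Hk2, hexokinase 2, chr6:82774405-82774704, minus strand: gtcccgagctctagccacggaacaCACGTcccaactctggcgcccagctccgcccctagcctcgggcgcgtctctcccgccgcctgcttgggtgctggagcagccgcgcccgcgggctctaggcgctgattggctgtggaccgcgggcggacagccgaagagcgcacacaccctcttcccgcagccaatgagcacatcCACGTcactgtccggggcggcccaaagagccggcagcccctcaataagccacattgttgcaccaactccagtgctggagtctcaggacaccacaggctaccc
Pfkfb3, a phosphofructokinase activator enzyme, chr2:11502041-11502340, minus strand: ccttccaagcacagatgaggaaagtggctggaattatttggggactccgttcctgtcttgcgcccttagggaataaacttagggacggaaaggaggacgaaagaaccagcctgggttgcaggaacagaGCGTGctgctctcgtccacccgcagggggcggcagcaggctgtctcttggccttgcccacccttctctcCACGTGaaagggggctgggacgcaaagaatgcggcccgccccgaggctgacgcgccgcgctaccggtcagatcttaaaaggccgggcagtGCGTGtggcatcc

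The Pygl window held the core in both of its forms, the Pdk1 window held GCGTG at 2 places, the Slc16a3 and Hk2 windows held ACGTG at 2 places each, and the Ldhb window held GCGTG once. Of the 6 windows shown, only that of Pfkfb3 held the whole CACGTG. Among the genes at least 2-fold apart that are not shown, the windows of Gbe1, Gys1, Eno2 and Fbp1 held neither ACGTG nor GCGTG. The rest of those genes held a match in at least 1 window. A second annotated start of Pdk1 had no match, and a second start of Pfkfb3 had 1. Over the whole list, 40 genes had 60 windows in the table, and 73.3% of these windows held ACGTG or GCGTG, against 43.8% of all 32851 windows of the table. For ACGTG alone the shares were 41.7% and 19.6%, and for CACGTG they were 10% and 7.15%. The AP-1 site, written TGAGTCA or TGACTCA, was in 1.67% of the windows of these genes, 1 window of Aldoa, and in 5.20% of all windows. The windows of these genes were also richer in G and C, with a median of 60.2% against 52.7%, and the part of base composition in these shares was not tested. A match in a window is a description of its letters only.

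**Figure D1:**
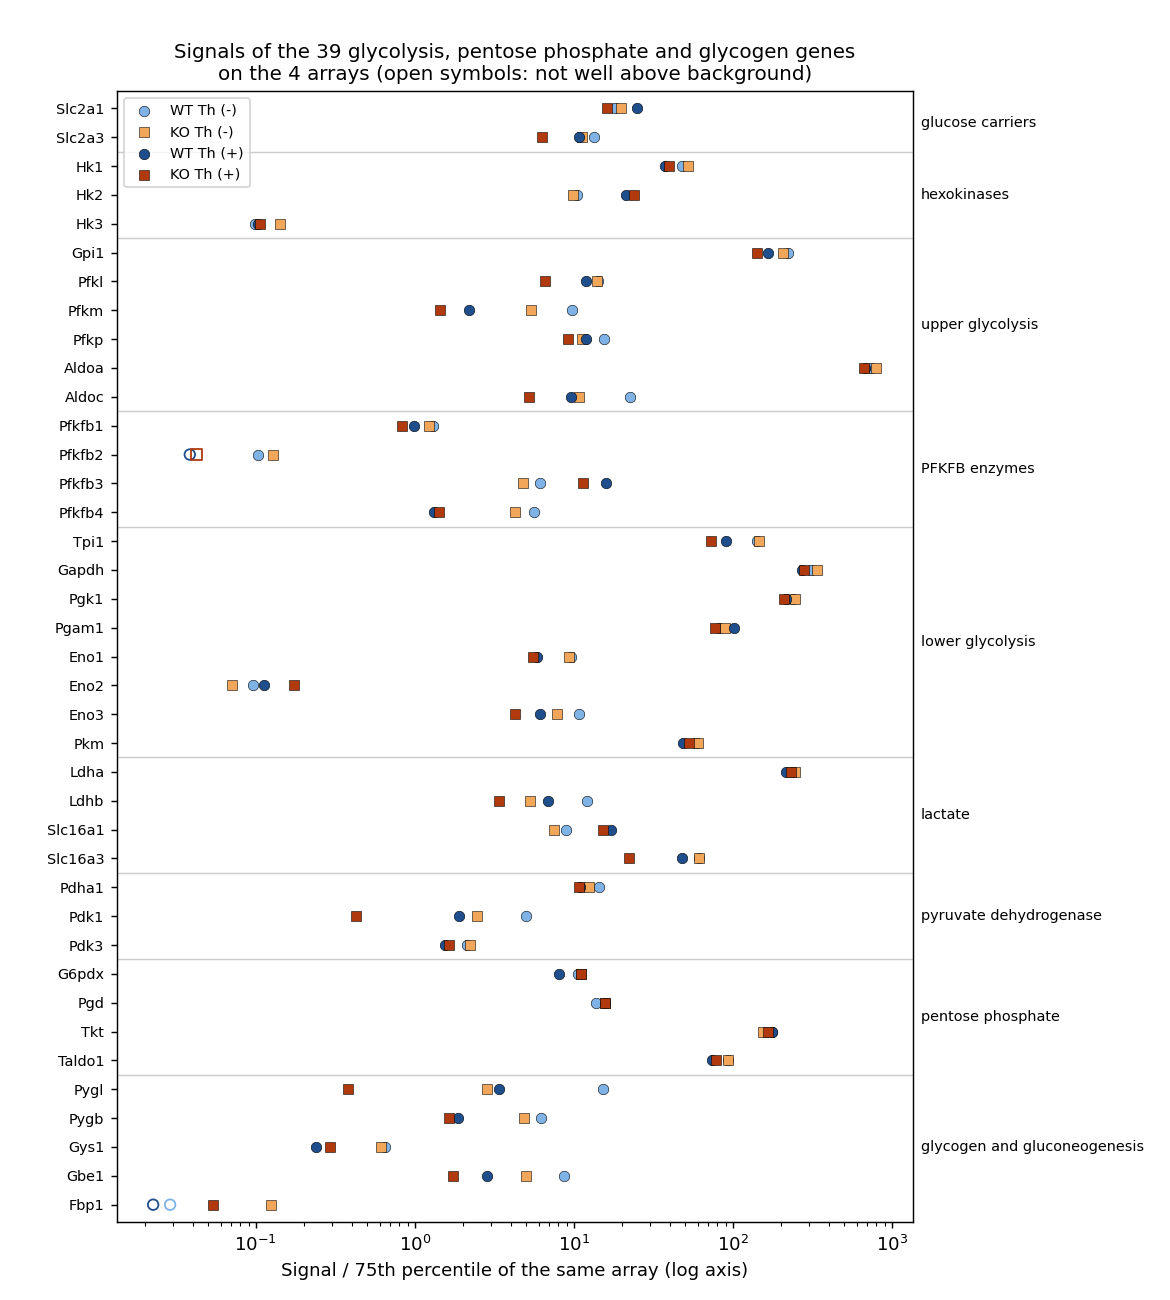
Each row is 1 gene and each symbol 1 array, with the signal as a multiple of the 75th percentile of that array on a log axis, for the 39 genes well above background on at least 1 array. Circles are WT arrays, squares are KO arrays, pale symbols are before and dark symbols after re-stimulation, and open symbols are not well above background. The symbols of Aldoa, Gapdh, Pgk1 and Ldha lie almost on top of each other, whereas those of Pygl and Pdk1 are spread, with the KO Th (+) array lowest.

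Before re-stimulation, most of the listed genes had nearly equal signals in the 2 genotypes, and the largest difference was that of Pygl, a glycogen phosphorylase gene. Of 39 genes measured, 4 were at least 2-fold lower on the KO array (Pygl, Ldhb, Aldoc and Pdk1) and 1, Fbp1, was at least 2-fold higher. Over all 12136 genes measured in that comparison, 2.82% were at least 2-fold lower and 5.26% at least 2-fold higher. The median log2 difference of the listed genes was -0.07 (0.07 where the arrays were scaled to Cd3e), against -0.0033 over all genes, and 31 of the 39 lay within 0.5 of 0. Counted at 1.5-fold, 6 genes were lower and 1 was higher, where over all genes 6.70% were lower and 9.58% higher.

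Pygl encodes the liver form of glycogen phosphorylase, the enzyme that releases glucose units from glycogen (transcript NM_133198). Its scaled signal was 15.25 on the WT Th (-) array, 2.86 on the KO Th (-) array, 3.40 on the WT Th (+) array and 0.379 on the KO Th (+) array. The KO array was below the WT array in each state, and the WT array after re-stimulation was close to the KO array before it. The signal was 5.32-fold lower in KO before re-stimulation, a log2 difference of -2.41 ± 0.20 (scanner software error), and 8.97-fold lower after it, -3.16 ± 0.21. No other gene of the list that was well above background on both arrays had a difference between genotypes as large as either value. Pygl had 1 probe, so these values have no second probe behind them.

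Pdk1 encodes a kinase that switches off pyruvate dehydrogenase and so keeps pyruvate out of the mitochondria (transcript NM_172665). Its scaled signal was 5.0 in WT Th (-), 2.45 in KO Th (-), 1.89 in WT Th (+) and 0.429 in KO Th (+). The order of the arrays was that of Pygl with the middle arrays exchanged, and the KO Th (+) array was again the lowest. The log2 difference between genotypes was -1.03 ± 0.20 before re-stimulation and -2.14 ± 0.21 after it. The second probe of the gene gave -0.80 and -1.43, in the same direction but smaller, and the first of these is under 2-fold, as was the difference before re-stimulation in 2 of 9 other ways of processing. Pdha1, a subunit of the pyruvate dehydrogenase that Pdk1 acts on, had scaled signals of 14.4, 12.4, 10.9 and 10.8 in the same order of arrays, with no 2-fold difference, and Pdk3, a related kinase, was within 0.09 of 0 between genotypes in both states.

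Ldhb encodes the lactate dehydrogenase subunit that favours the turning of lactate back into pyruvate (transcript NM_008492). Its scaled signal was 12.1 in WT Th (-), 5.29 in KO Th (-), 6.87 in WT Th (+) and 3.38 in KO Th (+). The KO array was 2.28-fold lower before re-stimulation and 2.03-fold lower after it, log2 differences of -1.19 ± 0.20 and -1.02 ± 0.20, and the second of these was under 2-fold in 2 of 9 other ways of processing. Ldha, which encodes the subunit that favours lactate, had scaled signals of 236, 247, 218 and 234 in the same order. The genotypes thus differed in Ldhb by more than 2-fold and in Ldha by 1.08-fold at most.

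Aldoc, one of the aldolases that cut the sugar into trioses (transcript NM_009657), had a scaled signal of 22.7 in WT Th (-), 10.8 in KO Th (-), 9.64 in WT Th (+) and 5.23 in KO Th (+). Its log2 difference between genotypes was -1.08 ± 0.20 before re-stimulation and -0.88 ± 0.20 after it, and with arrays scaled to Cd3e the first of these was -0.94, under 2-fold. Aldoa, the aldolase of most tissues, had 741 in WT Th (-), 801 in KO Th (-), 675 in WT Th (+) and 667 in KO Th (+), and thus was nearly level over the arrays. Fbp1, fructose bisphosphatase, which runs the phosphofructokinase step backwards in gluconeogenesis, was well above background on the KO arrays only, with 0.124 before and 0.0540 after re-stimulation. Before re-stimulation the KO array was at least 3.58-fold higher, set against the lowest signal well above background on the WT array, or 1.84 on the log2 scale, and this went down to 0.54 under other processing. After re-stimulation its KO signal was 1.16-fold above that limit. The mast cell and basophil markers were higher on the same arrays, and their part in this value was not tested.

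**Figure D2:**
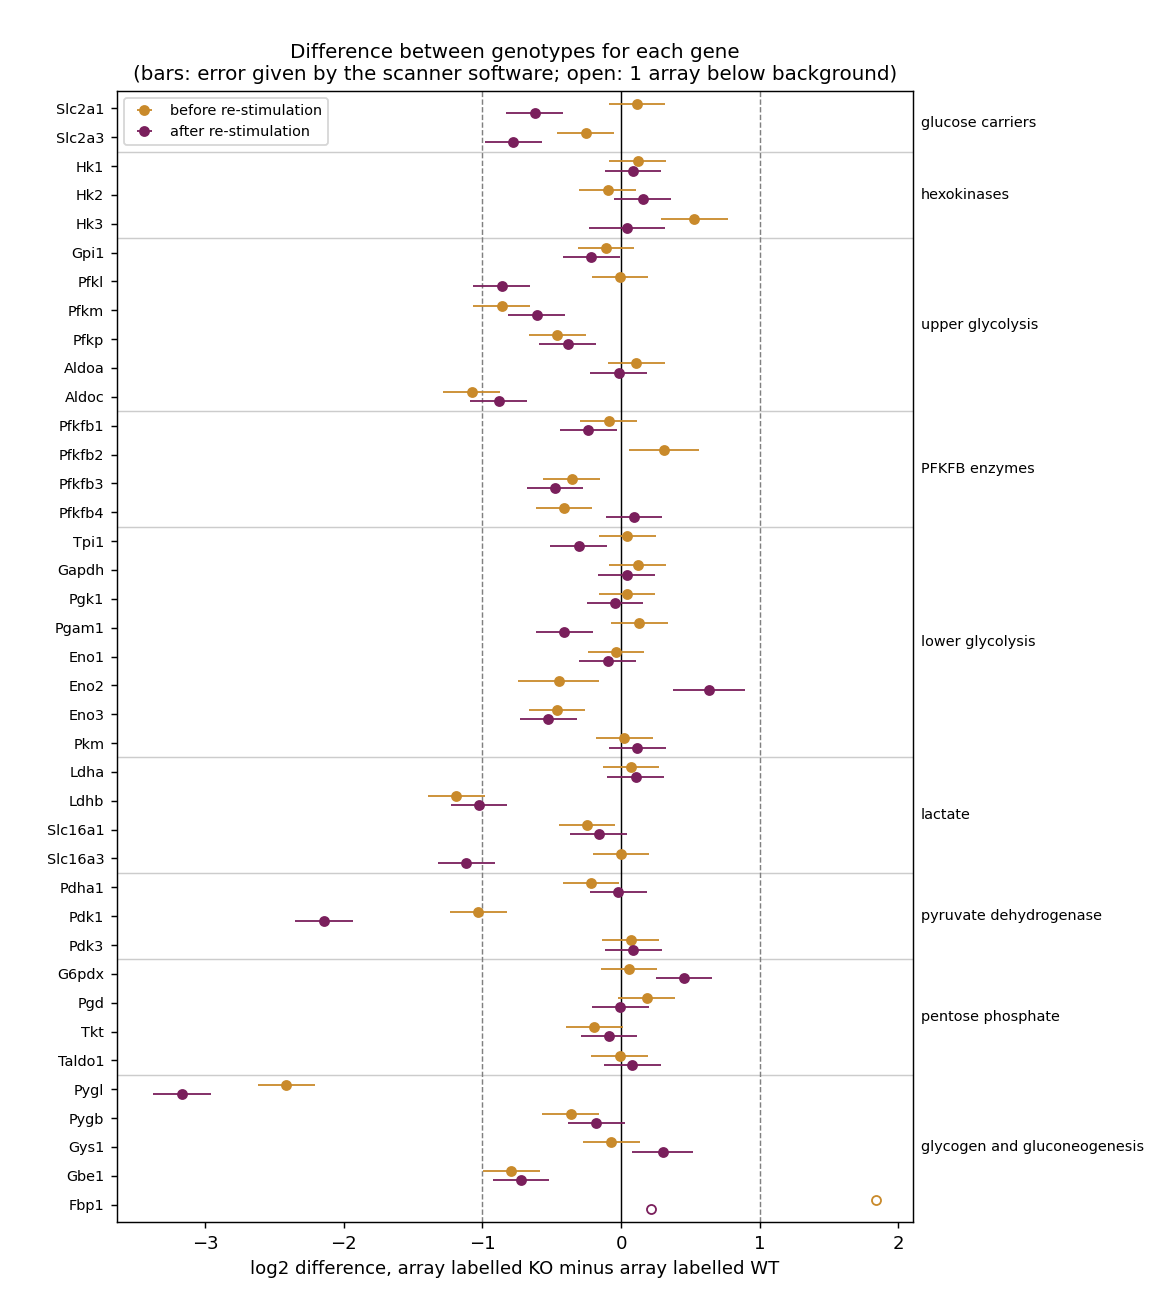
Each row is 1 gene, and points give the log2 difference of the KO array minus the WT array before (ochre) and after (purple) re-stimulation, with bars for the error given by the scanner software and dashed lines at 2-fold. Open points are limits, where 1 array was not well above background. Pygl lies farthest to the left, at -2.41 and -3.16, followed by Pdk1 after re-stimulation at -2.14, and Ldhb and Aldoc lie near -1, while the pentose phosphate genes lie close to 0.

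After re-stimulation, 4 of 38 genes measured were at least 2-fold lower on the KO array (Pygl, Pdk1, Slc16a3 and Ldhb) and 0 were at least 2-fold higher. Over all 12348 genes measured the shares were 3.85% lower and 5.17% higher. The median log2 difference of the list was -0.13, against 0.016 over all genes. Counted at 1.5-fold, 10 genes were lower and 1, Eno2, was higher, where over all genes 9.18% were lower and 10.8% higher. Pygl, Pdk1 and Ldhb, 3 of the 37 genes with a signal on every array, were at least 2-fold lower on the KO arrays in both states, as were 0.860% of the 10810 such genes of the array. At least 2-fold higher in both states were 0 of the 37, against 1.69%.

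Slc16a3 encodes a proton-linked carrier that exports lactate (transcript NM_030696). Its scaled signal was 61.2 on both arrays before re-stimulation, 47.9 in WT Th (+) and 22.1 in KO Th (+). The genotypes were equal before re-stimulation, and after it the KO array was 2.17-fold lower, a log2 difference of -1.12 ± 0.20. Only the KO Th (+) array stood apart from the other arrays. Slc16a1, the other lactate carrier on the list, had no such difference, at -0.24 and -0.16.

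The carriers that bring glucose into the cell also separated after re-stimulation, by less than 2-fold. Slc2a1 (transcript NM_011400) had a scaled signal of 18.3 in WT Th (-), 19.8 in KO Th (-), 25.0 in WT Th (+) and 16.2 in KO Th (+). Its log2 difference between genotypes was 0.12 ± 0.20 before and -0.62 ± 0.20 after re-stimulation. The WT Th (+) array was the highest and the KO Th (+) array the lowest. Slc2a3, a carrier of higher affinity, was at -0.25 and -0.78.

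In the upper part of glycolysis, the 6 genes had log2 differences between genotypes from -1.08 to 0.11 before re-stimulation and from -0.88 to -0.02 after it. Pfkl, the liver form of phosphofructokinase, the enzyme that commits sugar to glycolysis (transcript NM_008826), had 14.2 in WT Th (-), 14.1 in KO Th (-), 11.9 in WT Th (+) and 6.55 in KO Th (+). Like Slc16a3 it was equal before re-stimulation and then lower in KO, by 1.82-fold. Pfkm, the muscle form (transcript NM_021514), had 9.72, 5.35, 2.18 and 1.43 in the same order, with log2 differences between genotypes of -0.86 ± 0.20 and -0.61 ± 0.20. Its WT signal was above its KO signal in both states. For Gbe1, the glycogen branching enzyme, the differences were -0.79 and -0.72.

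The trunk of the pathway and the pentose phosphate branch differed little between genotypes. The 8 genes of lower glycolysis, from triose phosphate isomerase (Tpi1) to pyruvate kinase (Pkm), had log2 differences from -0.46 to 0.13 before re-stimulation and from -0.52 to 0.63 after it. Gapdh, the brightest probe among them and often used as a reference gene, had 312, 339, 273 and 280 on the WT Th (-), KO Th (-), WT Th (+) and KO Th (+) arrays. Before re-stimulation the 4 pentose phosphate genes lay between -0.19 and 0.19, and after it they lay between -0.09 and 0.46, the highest being G6pdx, the enzyme of the first step of that pathway. Tkt, transketolase, had 176, 154, 178 and 168 in the same order of arrays. The 3 hexokinase genes, for the enzymes that trap glucose in the cell, lay between -0.10 and 0.53, and Hk1, the brightest of them, had 48.0, 52.1, 37.3 and 39.5.

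Re-stimulation for 4 h went with lower signals for many of the genes in both genotypes, and most plainly for those of glycogen. With arrays scaled to their 75th percentile, 9 of 38 genes in WT cells were lower by 2-fold or more on re-stimulation and 2 at least 2-fold higher, where over all 12388 genes 13.5% were lower and 13.2% higher. In KO cells, 12 of 39 were at least 2-fold lower and 4 at least 2-fold higher, where over all 12395 genes the shares were 13.0% and 12.4%. The median log2 difference of the list was -0.36 in WT and -0.43 in KO, against -0.0052 and 0.0087 over all genes. These counts move with the scaling of the arrays. With arrays set to their medians, the shares over all genes in WT were 21.5% lower and 8.82% higher and the list had 11 lower and 1 higher. With arrays set to Cd3e they were 8.02% and 20.1%, and the list had 7 and 3. In KO the shares were 19.3% lower and 8.58% higher with medians, where the list had 16 and 2, and 8.41% and 17.6% with Cd3e, where the list had 8 and 4. The median of the list minus that of all genes, which a shift common to all genes leaves as it is, was -0.36 in WT and -0.44 in KO. It was -0.39 and -0.50 with quantile normalization and -0.425 and -0.50 with normexp. Of the 37 genes with a signal on every array, 8 were at least 2-fold lower in both genotypes (Pfkm, Aldoc, Pfkfb4, Pdk1, Pygl, Pygb, Gys1 and Gbe1) and 2 were at least 2-fold higher in both (Hk2 and Pfkfb3), where over all 10810 such genes 9.69% were lower and 7.67% higher in both. The 8 genes of the TCR response, such as Egr2, Nr4a1 and Il2, were all at least 2-fold higher after re-stimulation in both genotypes, so the labels Th (-) and Th (+) had a check.

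**Figure D3:**
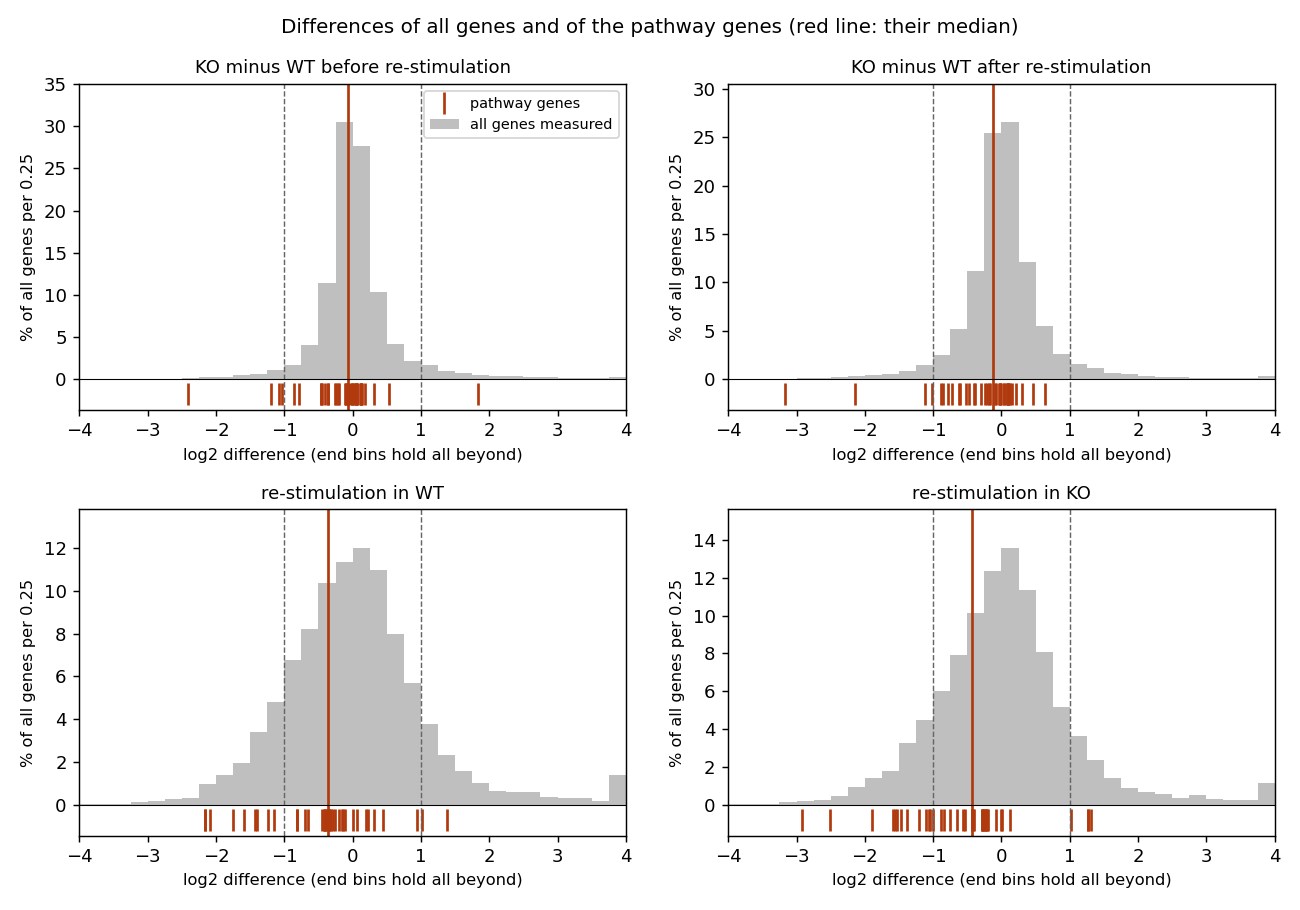
Each panel is 1 comparison, with grey bars for the share of all measured genes per 0.25 of log2 difference, red ticks for the genes of the list, a red line at their median and dashed lines at 2-fold. The median of the list lies close to 0 in both comparisons between genotypes and at -0.36 and -0.43 in the comparisons before and after re-stimulation.

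The 4 glycogen genes of the list, Pygl, Pygb, Gys1 and Gbe1, were each lower by 2-fold or more on the re-stimulated array in both genotypes. Pygb, the brain form of glycogen phosphorylase (transcript NM_153781), had a scaled signal of 6.26 in WT Th (-), 4.87 in KO Th (-), 1.86 in WT Th (+) and 1.64 in KO Th (+). Both arrays after re-stimulation were below both arrays before it, by 3.36-fold in WT and 2.96-fold in KO. Gbe1 (transcript NM_028803) had 8.63, 4.99, 2.86 and 1.73 in the same order, and was 3.02-fold and 2.88-fold lower. Gys1, the glycogen synthase of muscle and most other tissues (transcript NM_030678), had 0.646, 0.615, 0.239 and 0.294, and was 2.70-fold lower in WT and 2.09-fold lower in KO, the latter under 2-fold in 2 of 9 other ways of processing. Pygl was 4.49-fold lower in WT and 7.56-fold lower in KO, log2 differences of -2.17 ± 0.20 and -2.92 ± 0.21. Genes for making glycogen and for breaking it down were thus lower together. Fbp1, counted with this group, had a log2 difference of -1.20 ± 0.34 in KO, between -1.47 and -0.39 under other processing, and no measured value in WT.

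The genes that set the pace of glycolysis did not go one way. Hk2, the inducible hexokinase (transcript NM_013820), had a scaled signal of 10.5 in WT Th (-), 9.85 in KO Th (-), 21.3 in WT Th (+) and 23.8 in KO Th (+). It was 2.03-fold higher after re-stimulation in WT and 2.41-fold higher in KO, with both Th (+) arrays above both Th (-) arrays. The difference in WT was under 2-fold in 3 of 9 other ways of processing, down to 0.72 on the log2 scale. The Pfkfb genes encode the enzymes that make and remove a fructose bisphosphate that activates phosphofructokinase. Pfkfb3, the form with the strongest making activity (transcript NM_133232), had 6.11, 4.78, 15.9 and 11.5 in the same order and was 2.61-fold and 2.40-fold higher, and its other 2 probes gave log2 differences between 1.11 and 1.62. Pfkfb4 (transcript NM_173019) went the other way, with 5.64, 4.25, 1.33 and 1.41, and was 4.26-fold lower in WT and 3.01-fold lower in KO. Pfkfb3 and Pfkfb4 thus went in opposite directions in both genotypes.

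Pfkfb1 lay between -0.56 and -0.09 in all 4 comparisons. By its brightest probe, Pfkfb2 was well above background before re-stimulation only, with 0.103 in WT and 0.128 in KO, and was at least 2.22-fold and 2.62-fold lower after it. A second, dimmer probe was well above background on the KO arrays only, with 0.0489 before and 0.0700 after re-stimulation, a log2 difference of 0.52, so the direction of this gene depends on the probe (from -1.45 to 0.87 on the log2 scale in WT under other processing). Pfkm was 4.46-fold lower in WT and 3.74-fold lower in KO, and Aldoc was 2.36-fold and 2.06-fold lower, both under 2-fold with arrays scaled to Cd3e (-0.94 and -0.79 on the log2 scale). Pfkl was 1.19-fold lower in WT and 2.15-fold lower in KO.

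**Figure D4:**
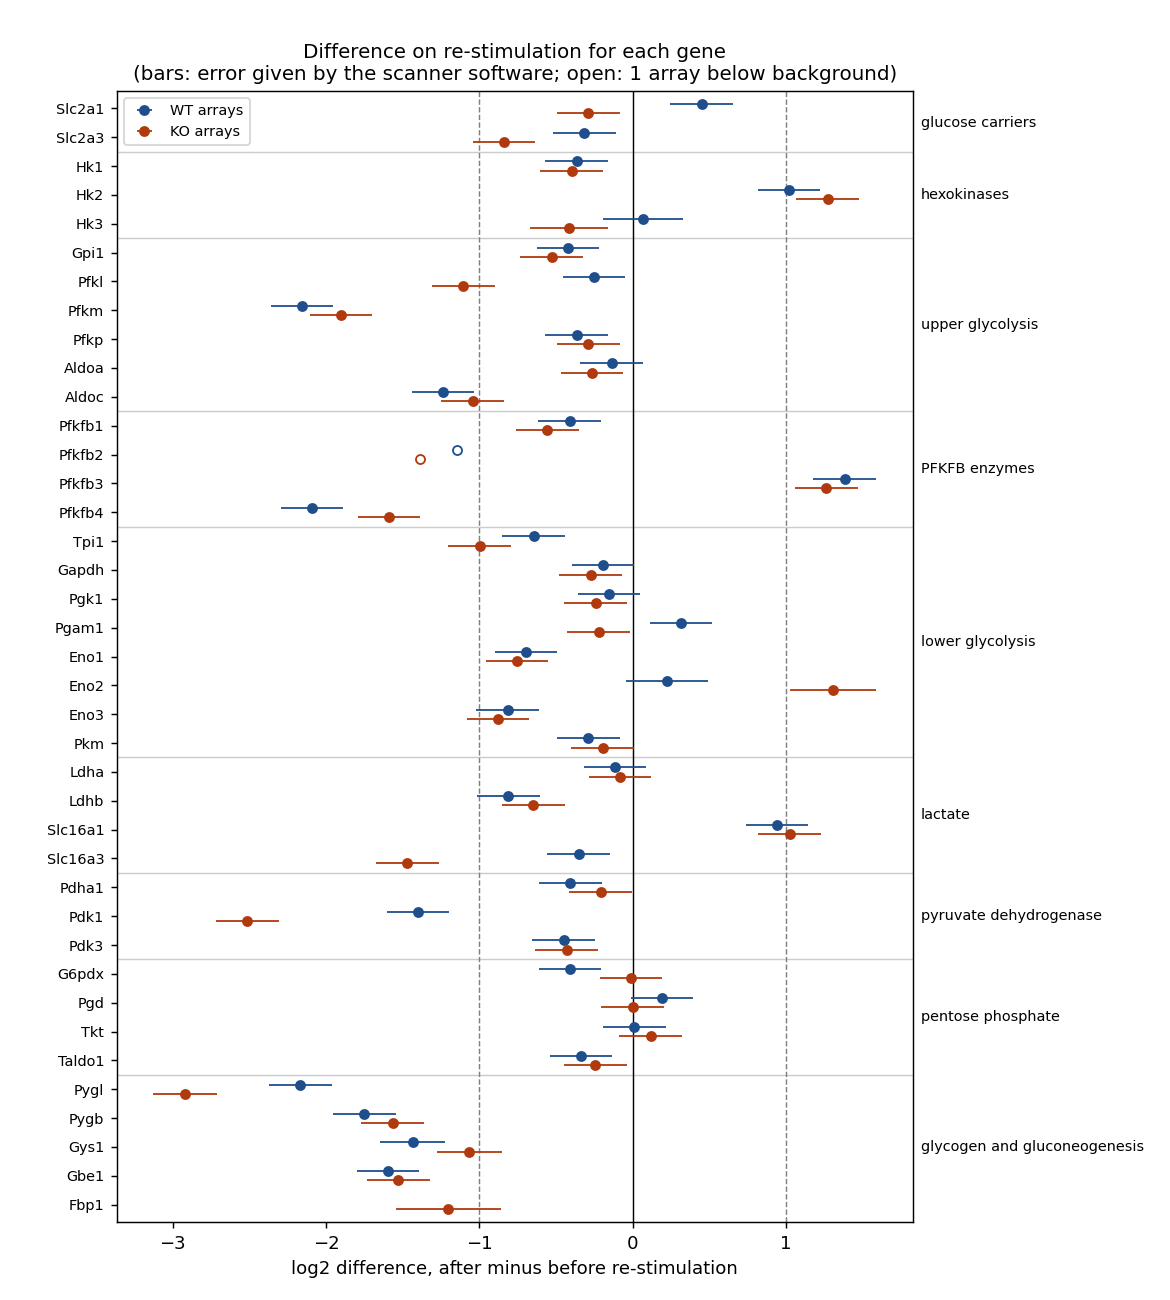
Each row is 1 gene, and points give the log2 difference of the array after re-stimulation minus the array before it, in WT (blue) and KO (red), with bars for the error given by the scanner software and dashed lines at 2-fold. Open points are limits. The glycogen genes, Pfkm, Pfkfb4 and Pdk1 lie left of -1 in both genotypes, Hk2 and Pfkfb3 lie right of 1, and the pairs of points are farthest apart for Pdk1, Slc16a3 and Eno2.

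Around pyruvate and lactate, Slc16a1, a carrier for lactate and pyruvate (transcript NM_009196), had a scaled signal of 8.88 in WT Th (-), 7.49 in KO Th (-), 17.1 in WT Th (+) and 15.25 in KO Th (+). It was 1.92-fold higher after re-stimulation in WT and 2.04-fold higher in KO, on either side of the 2-fold line with almost the same value, and between 0.76 and 1.28 on the log2 scale in KO under other processing. Slc16a3 was 1.28-fold lower in WT and 2.77-fold lower in KO, and Pdk1 was 2.64-fold lower in WT and 5.70-fold lower in KO. The second probe of Pdk1 gave log2 differences of -1.325 in WT and -1.955 in KO, closer together than those of the brightest probe. Ldhb was 1.75-fold and 1.57-fold lower, and Ldha 1.08-fold and 1.06-fold lower. In KO cells the lactate carriers thus lay past 2-fold on opposite sides, and in WT cells neither was 2-fold apart, with Slc16a3 between -0.65 and -0.06 on the log2 scale under other processing.

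In lower glycolysis none of the 8 genes was 2-fold lower, with log2 differences down to -0.82 in WT and -1.0 in KO, the last being Tpi1, just inside the 2-fold line. The 4 pentose phosphate genes stayed between -0.41 and 0.19 in both genotypes. Eno2, the neuronal enolase (transcript NM_013509), was dim, with 0.0964 in WT Th (-), 0.0706 in KO Th (-), 0.113 in WT Th (+) and 0.175 in KO Th (+), and was 2.48-fold higher after re-stimulation in KO and 1.17-fold higher in WT. The KO Th (+) array was the highest, and the log2 difference in KO, 1.31 ± 0.28, went from 0.47 to 1.56 under other processing.

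**Figure D5:**
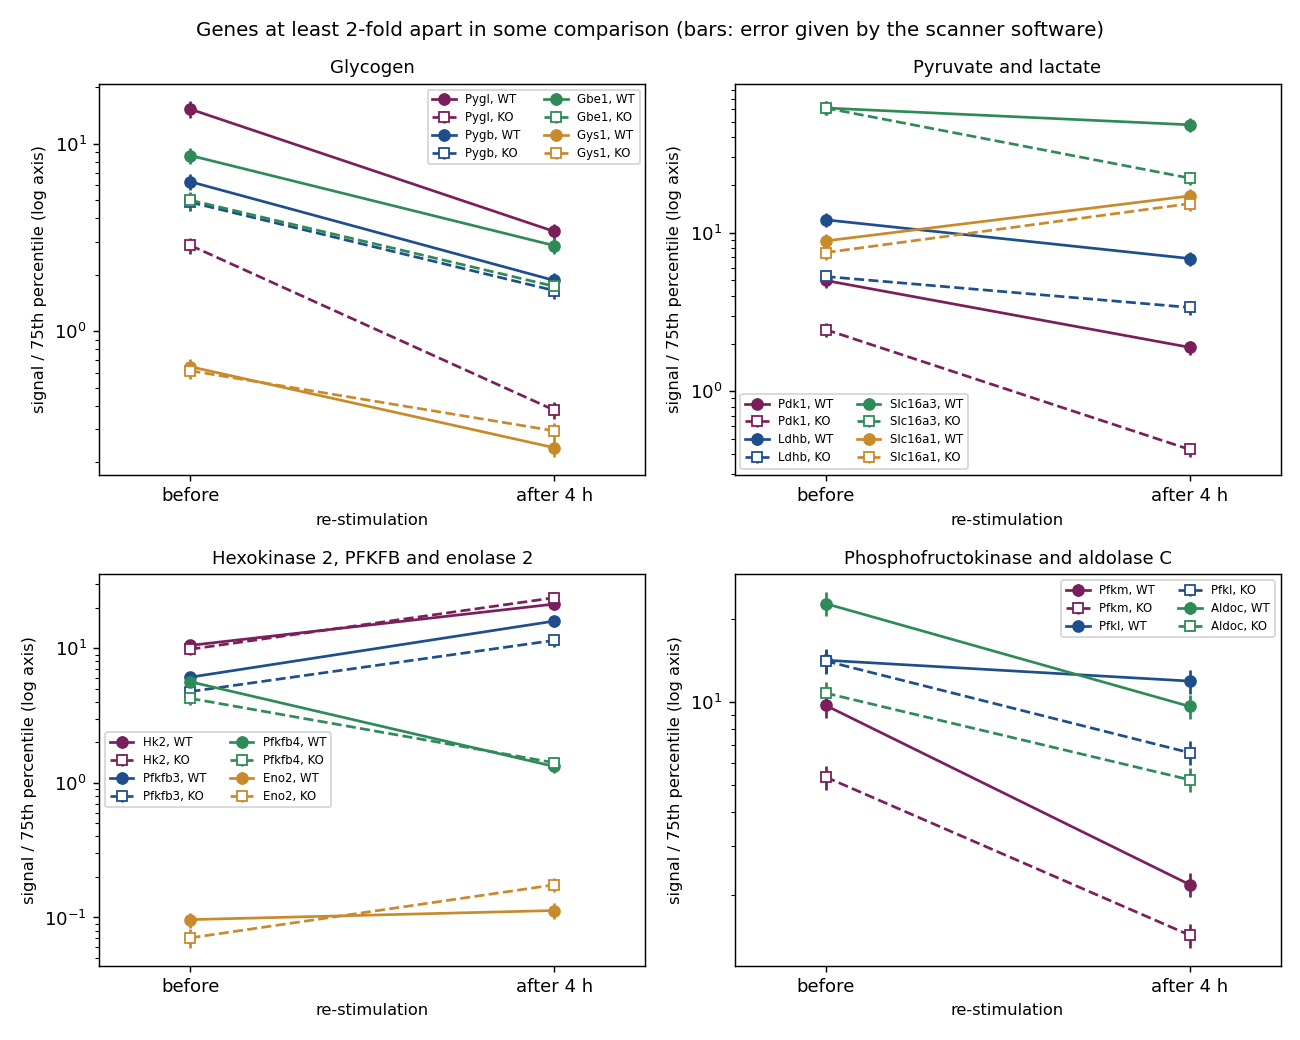
Signals as multiples of the 75th percentile of the array, on log axes, before and after re-stimulation, for 15 of the 17 genes at least 2-fold apart in some comparison. Solid lines with filled circles are WT, dashed lines with open squares are KO, and bars are the error given by the scanner software. The glycogen lines all slope down, those of Hk2, Pfkfb3 and Slc16a1 slope up, and the WT and KO lines of Pdk1 and Slc16a3 move apart while those of Ldhb run nearly parallel.

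The response to re-stimulation was compared between genotypes as the log2 difference in KO minus that in WT, for the 37 genes measured on all 4 arrays. Of these, 28 lay within 0.5 of 0, 2 were at least 2-fold lower (Slc16a3 at -1.12 and Pdk1 at -1.11) and 1 was at least 2-fold higher (Eno2 at 1.09). The second probe of Pdk1 gave responses of -1.325 in WT and -1.955 in KO, less than 2-fold apart, so this call depends on the probe. Over the 10810 genes measured on all arrays, 3.00% were at least 2-fold lower and 1.82% at least 2-fold higher. The median was -0.03 for the list and -0.00 over all genes. Pfkl at -0.85, Pygl at -0.75 and Slc2a1 at -0.74 came next on the lower side. No gene of the list was at least 1.5-fold higher in one genotype and at least 1.5-fold lower in the other.

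Genes of the same pathways outside the list were counted next, to be read against the shares over all genes: 2.82% lower and 5.26% higher in KO before re-stimulation, 3.85% and 5.17% after it, and on re-stimulation 13.5% lower and 13.2% higher in WT and 13.0% and 12.4% in KO. Of 24 other genes of glycolysis and glucose handling with a signal, 1 was at least 2-fold higher and 3 at least 2-fold lower in KO after re-stimulation, among 21 measured, with a median of -0.03. Before re-stimulation 2 of 22 were higher and 0 lower. On re-stimulation their medians were 0.12 in WT and 0.20 in KO, above 0 with this scaling, where those of the list were below it. Scaling to the median shifts the differences of all genes by -0.30 in WT and -0.27 in KO. The sign of these small medians thus depends on the scaling, while the gap to the list does not change with such a shift. Slc2a6, a sugar carrier, had a scaled signal of 0.717 in WT Th (-), 0.694 in KO Th (-), 15.2 in WT Th (+) and 4.28 in KO Th (+), so that its rise in signal on re-stimulation was 4.40 on the log2 scale in WT and 2.63 in KO. Gpd1, the cytosolic glycerol phosphate dehydrogenase, was not well above background before re-stimulation and had 1.77 and 1.63 after it in WT and KO. Ldhd, the lactate dehydrogenase for the D form, was well above background on the KO arrays only, with 0.184 and 0.227, and was higher there by at least 2.41 and 2.29 on the log2 scale. Pcx, pyruvate carboxylase, which feeds pyruvate into the citric acid cycle and gluconeogenesis, had 24.9, 12.6, 5.05 and 3.31, the WT Th (-) array being the highest as for Aldoc and Gbe1.

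The other glycogen genes also had medians below 0 on re-stimulation. In WT, 6 of 14 were at least 2-fold lower and 2 at least 2-fold higher, with a median of -0.93. In KO, 3 of 13 were lower and 1 was higher, with a median of -0.41. Over all genes the shares on re-stimulation were 13.5% lower and 13.2% higher in WT, and 13.0% and 12.4% in KO. Pgm3, which acts in the hexosamine branch, was higher by 1.29 and 1.64. Between genotypes the other glycogen genes had a median of -0.25 before re-stimulation, with 12 of 13 below 0, and 0.27 after it, with 10 of 14 above 0. Over all genes 6118 of 12136 were below 0 before and 6409 of 12348 above 0 after. In this group 1 of 13 was at least 2-fold lower in KO before re-stimulation and 0 of 14 after it, against 2.82% and 3.85% over all genes. At least 2-fold higher were 0 in both states, against 5.26% and 5.17%. Whether the 2 genotypes differ in this group was not tested. Of 7 other pentose phosphate genes, 2 were lower by 2-fold or more on re-stimulation in each genotype and 0 were 2-fold apart between genotypes.

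Among 24 known regulators of glycolysis with a signal, 2 were at least 2-fold higher and 0 lower in KO before re-stimulation. Between the Th (+) arrays 23 of them were measured, of which 2 were higher in KO and 2 lower. For comparison, 5.26% of all genes were higher and 2.82% lower on the KO Th (-) array. On the KO Th (+) array 5.17% were higher and 3.85% lower. The widest differences between genotypes were those of Epas1 and Hif1a on the Th (-) arrays and of Epas1 and Mycn on the Th (+) arrays. Epas1, the HIF-2α gene, had a scaled signal of 1.72 in WT Th (-), 8.11 in KO Th (-), 1.53 in WT Th (+) and 15.4 in KO Th (+), log2 differences of 2.24 and 3.33. Both KO arrays were above both WT arrays. Hif1a, the HIF-1α gene, had 4.30, 10.9, 7.81 and 10.2, with the WT Th (-) array lowest and log2 differences of 1.34 and 0.38. Mycn, a gene of the Myc family, had 0.892, 0.852, 0.2335 and 0.7975, and was higher in KO by 1.77 after re-stimulation on the log2 scale. Egln1, a prolyl hydroxylase that marks the products of Hif1a and Epas1 for degradation, had 2.14, 1.87, 1.59 and 0.77. Txnip, an arrestin-like protein that holds back glucose uptake, had 7.20, 5.41, 1.70 and 0.70, lower after re-stimulation in both genotypes. Myc, given for its known role and not for its size, was higher after re-stimulation by 1.32 in WT and 1.05 in KO and within 0.5 of 0 between genotypes.

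Genes outside the pathway that are known to respond to hypoxia gave 4 of 23 at least 2-fold lower in KO after re-stimulation and 1 at least 2-fold higher, with a median of -0.14. Over all genes 3.85% were lower and 5.17% higher after re-stimulation, and 2.82% and 5.26% before it. P4ha2, a collagen prolyl hydroxylase, had 16.5 in WT Th (-), 8.13 in KO Th (-), 10.2 in WT Th (+) and 4.06 in KO Th (+), and was the 1 gene of this group at least 2-fold lower before re-stimulation. Ankrd37 was lower in KO by 1.34 after re-stimulation, and Ero1a, an oxidase of the endoplasmic reticulum, was higher by 1.58.

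The pathways next to glycolysis were counted in the same way. Over all genes 2.82% were at least 2-fold lower and 5.26% higher in KO before re-stimulation, and 3.85% and 5.17% after it. Of 19 citric acid cycle genes 0 were 2-fold apart between genotypes in either state, and 1 of 19, Idh2, was lower by 2-fold or more on re-stimulation in each genotype, with medians of -0.34 in WT and -0.24 in KO. Of 17 genes of glutamine metabolism, 0 were 2-fold apart between the Th (-) arrays, and between the Th (+) arrays 1, Gpt2, was higher in KO by 1.51 on the log2 scale and 0 were lower, with a median of 0.17. On re-stimulation 5 were at least 2-fold higher in WT and 9 in KO, and 0 were lower. Over all genes 13.2% were higher in WT and 12.4% in KO, and 13.5% and 13.0% were lower. The glutamine counts were made with 1 scaling only, and some values lay just past 2-fold, such as Slc3a2 in WT at 1.03 and Psat1 in KO at 1.08. Scaling to the median shifts differences on re-stimulation by -0.30 in WT and -0.27 in KO, which would lower these counts. The glutamine genes had medians of 0.68 and 1.08, which stand opposite to the -0.36 and -0.43 of the list. Asns, asparagine synthetase, had 13.3, 24.5, 50.6 and 84.8, and Slc1a5, a glutamine carrier, had 31.1, 30.0, 71.8 and 74.7 in the order WT Th (-), KO Th (-), WT Th (+) and KO Th (+).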

How the data were processed

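The 4 arrays were one-colour (Cy3) Agilent mouse arrays, 1 per condition. The intensity of each spot was deposited by the authors as written by Feature Extraction 10.7.3.1, that is, after subtraction of the background and correction for trends over the slide surface, beside a flag for each spot (well above background, saturated, uneven) and an error. The log2 table that the authors deposited holds intensities scaled in each array to its 75th percentile: at least 41001 of 41173 probes per array were within 0.01 of the values computed here, with medians between -4.09 and -3.77 and no centring of genes. That scaling is not given for the arrays in the sources used here beyond the table itself.

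Between 107 and 120 uneven or outlier spots per array were left out, spots of one probe were averaged as log2, and every array was set to 0 at the 75th percentile of its probes. Probes were named by transcript accession through a RefSeq table of GRCm38.p6, which named 27479 of 41173 probes (66.7%). A gene was read from its probe with the highest mean signal, a choice that ranks no transcript amounts. A difference was computed where at least 1 of both arrays was well above background, and a signal under the lowest one that was well above background on its array was replaced by that lowest one, which makes the difference a limit. Of the listed genes, 16 had several probes, and in each comparison the differences of those probes had the same sign in at least 12 of the 14 or 15 genes with 2 or more measured probes.

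With 1 array per condition there was no test. Genes were counted past 2-fold, and the share of all genes past 2-fold in the same comparison was computed for reference. Signals on all 4 arrays are given for each listed gene at least 2-fold apart in some comparison and for the brightest of each role, other listed genes are given by range, and other lists by counts, medians and at most the 3 widest differences of a comparison. The genes and lists were chosen with earlier results of these data known, so their counts are descriptions. Of the genes of other lists, Pdp2, Pck1, Rpia, Epm2a, Vhl, Fh1, Cd8b1, Cd68, Kit and Hbb-b1 had no matched probe and were not analysed here.

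The alternatives were quantile normalization, scaling to the median, to Cd3e or to the 75th percentile of the probes that every array measured well above background, normexp (offset of 50) before quantile normalization, the deposited log2 table, the mean over probes, a filter on both arrays, neither filter nor floor, and 1.5-fold and 3-fold rules. The scripts were run on simulated data in which 200 of 12136 genes were changed in the comparison of genotypes before re-stimulation, and 200 were recovered. The planted change was 2.0 on the log2 scale, large beside the simulated noise. It was given only to genes well above background on all 4 arrays, so recovery was to be expected. The run checks the code, and says nothing of how well smaller changes or dim genes are found on single arrays. Python 3.11.15, numpy 2.4.6, pandas 2.3.3, matplotlib 3.10.9, R 4.3.3 and limma 3.58.1 were used.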

Additional observations from a re-analysis of the deposited data

How the results depend on the processing

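No paired analysis was possible because each condition was read on 1 array. Of 842 values of the named genes under the alternatives, 657 moved by less than the spread between probes. Another 184 moved by more without a change of sign of a 2-fold difference. The last 1 changed sign: Pfkfb2 on re-stimulation in WT was 0.87 with the mean over probes, where dim probes enter. The 657 include values that could hardly move. For genes well above background on every array, the filter on both arrays and the setting without filter and floor changed nothing by construction. The mean over probes could not change a gene with 1 probe. The deposited table has the same scaling as the main values. The 657, and the counts of other ways of processing given for single genes, are thus not counts of independent checks. Of 124 medians and counts of the list, 100 stayed within the spread between probes (medians) or within 1.5 times of the value given (counts). Scaling to the median lowered the median of all genes by 0.30 in WT and 0.27 in KO on re-stimulation, and scaling to Cd3e raised it by 0.30 and 0.26, and by 0.14 between genotypes before re-stimulation. The median of the list before re-stimulation was 0.066 with Cd3e. On re-stimulation in WT it was -0.66 with median scaling, -0.068 with Cd3e and -0.52 with normexp, and in KO -0.69, -0.17 and -0.58. Genes at least 2-fold higher in KO before re-stimulation numbered 0 with normexp or with both arrays well above background, and those lower numbered 2 with Cd3e and 1 at 3-fold. After re-stimulation 1 was higher without filter and floor or at 1.5-fold, and 10 were lower at 1.5-fold and 2 at 3-fold. On re-stimulation in WT, 1 gene was higher with median scaling, quantile normalization or normexp, and at 3-fold 0 were higher and 5 lower. In KO, 2 were higher with median scaling or normexp, and at 3-fold 0 were higher and 4 lower. Another fold rule or filter changes a count by its own construction, and the cause of the other changes was not tested. Signals near background, as of Pfkfb2, Eno2, Hk3 and Fbp1, limit those genes most.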
